A study of Rattus norvegicus with 4 samples.

Results

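The proteasome is the multi-subunit protease that degrades ubiquitin-tagged proteins, and this account describes the mRNA of its subunits, activators, inhibitor and assembly chaperones in skeletal muscle of rats with experimental intermittent claudication. Members were the genes whose platform symbol starts with Psma, Psmb, Psmc, Psmd, Psme, Psmf or Psmg followed by a number, and each gene was read from its probe set with the highest mean over the arrays. The rule found 46 genes among 14218 with a probe set of their own. Of these, 44 are proteasome genes and are described below, and 2 (Psmc3ip and Psme3ip1) share only the start of the name. All 44 lay above the signal floor of 30.1, the median of all signals, on all 4 arrays, so none was lost to the filter on low values. The symbols Psmb6 and Psme3 occurred only on probe sets that carry further symbols, and these genes are not analysed here.

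Rats of the F344/DuCrlCrlj strain gave 4 single-colour arrays of muscle RNA, 1 each for sham, ischemia, ischemia with nerve-mediated electrical stimulation (ES) of the muscle, and ischemia with exercise. Ischemia is thus common to 3 of the 4 groups. The sources used here do not state which muscle was taken, the age, number or pooling of the animals behind an array, the operation, or how long ES or exercise lasted. There were no replicates, so each ratio below compares 2 arrays and has no replicate check and no p-value. The study asked which expression differences exercise and ES produce relative to ischemia alone, and both of these comparisons use the same ischemia array.

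In the cell, proteins marked with ubiquitin are recognised by the regulatory particle, unfolded by its ring of ATPases and fed into the barrel-shaped core particle, whose inner beta rings cut them. Interferon can replace the catalytic beta subunits with the immunoproteasome subunits encoded by Psmb8, Psmb9 and Psmb10 and induces the activator PA28, made of the Psme1 and Psme2 products. Together with muscle-specific ubiquitin ligases, the system is known for the breakdown of myofibrillar proteins when muscle wastes.

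The arrays had nearly equal medians, between 29.0 and 31.8 in signal. The ratio of the 3' to the 5' actin probe sets, which grows as RNA degrades, ran from 3.81 (ischemia) to 5.94 (ES), with 4.38 for sham and 4.34 for exercise. The same ratio was also lowest with ischemia and highest with ES for GAPDH (1.04 and 1.26) and for hexokinase (0.157 and 2.15). All 13 measured fast-fibre markers were above the floor on every array. The summed signal of 10 slow-fibre markers differed widely: it was 66333 in sham and 76603 with exercise, but 11603 with ischemia and 23214 with ES. In bulk tissue, fewer cells of a type and less RNA per cell cannot be told apart.

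Most proteasome genes differed little between the arrays. The highest signal of a gene over its lowest signal had a median of 1.14 over the 44 members, and 33 of them (75%) stayed within 1.2-fold. Over the 2329 genes with a mean signal above 500 the same median was 1.25 and 39.9% stayed within 1.2-fold, against 1.13 and 27 of 34 (79.4%) for members that bright. The core particle was the most even group, with 13 of 13 genes within 1.2-fold, followed by the regulatory particle with 13 of 17. Among the 5 genes of the immunoproteasome and PA28 only Psme1 stayed within it (20%). Psmb8, Psmb9 and Psmb10 are dimmer than 500, so the bright genes are not their background. Of all 8828 genes above the floor on all 4 arrays, 26% stayed within 1.2-fold, with a median of 1.33. The share of this part was thus near that of all genes.

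No member reached 2-fold in the 4 comparisons among these arrays that the design centres on. The background is the share of all 10092 genes with a signal over the floor on 1 or more arrays that passed the same threshold. For ischemia against sham it was 0.783% higher and 0.862% lower, for ES against ischemia 2.28% and 0.793%, for exercise against ischemia 1.14% and 0.872%, and for ES against exercise 2.95% and 1.1%. At 1.5-fold, 1 member was higher with ischemia than in sham (Psmc6), where the background was 4.94%, and 0 were lower (background 3.19%). With ES against ischemia 1 was higher (Psmb8, background 9.8%) and 2 were lower (Psmc6 and Psme4, background 4.72%). With exercise against ischemia 0 passed in either direction (backgrounds 4.02% higher and 4.24% lower). With ES against exercise 2 were higher (Psmb8 and Psmb9, background 10.5%) and 0 lower (background 4.6%), and Psmb8 did not pass there under quantile (log2 ratio 0.56) or loess normalization (0.55). None of these shares of 44 members exceeded the background of its comparison.

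**Figure D1:**
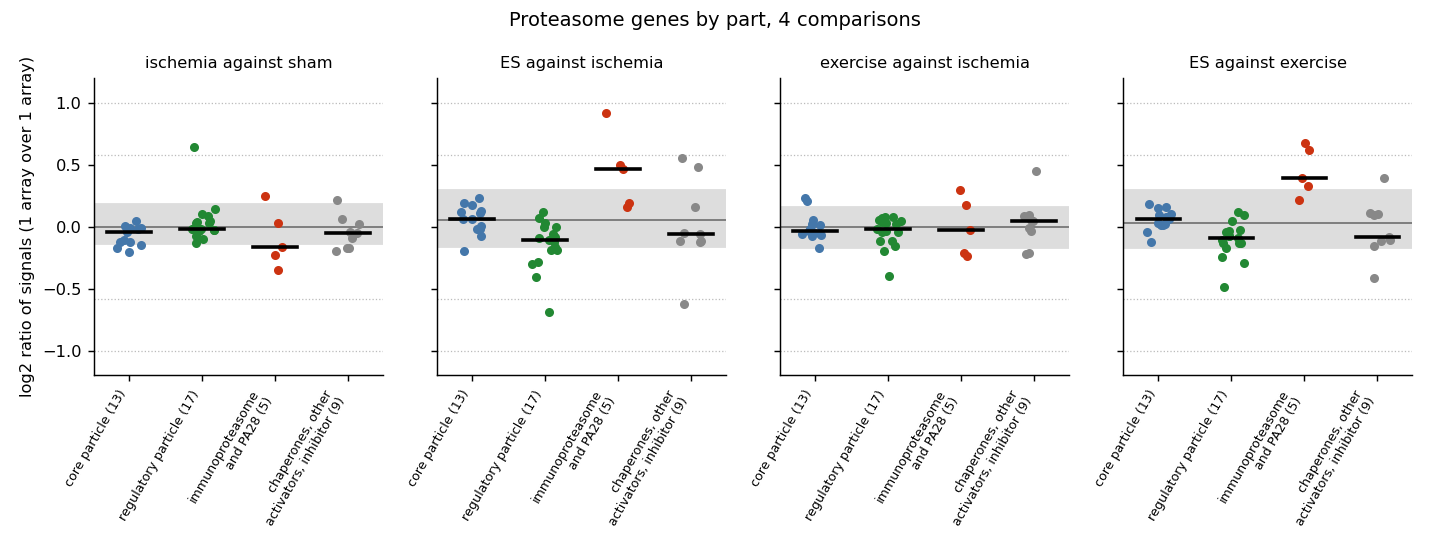
Log2 ratio of the signals of 2 arrays (y axis) for each of the 44 proteasome genes (points) by part (x axis, number of genes in brackets) in 4 comparisons; black bars are medians of a part, the grey line and band the median and middle 50% of all 10092 genes, dotted lines 1.5-fold and 2-fold. The immunoproteasome and PA28 points lie at or above 0.16 in both panels that set ES against another array, and the core points stay between -0.20 and 0.23 in all 4 panels.

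The member medians lay close to 0. They were -0.03 in log2 ratio for ischemia against sham, -0.01 for ES against ischemia (0.01 under both quantile and loess normalization), -0.02 for exercise against ischemia and 0.02 for ES against exercise, while the medians of all genes were 0.00, 0.05, 0.00 and 0.03. For ES against ischemia and against exercise the parts stood apart from each other. Against ischemia, the median of the immunoproteasome and PA28 was 0.465, that of the core particle 0.07 and that of the regulatory particle -0.11. The core median lay 0.175 above that of the regulatory particle for ES against ischemia (0.17 under quantile and 0.176 under loess normalization), and 0.15 above it for ES against exercise. With sham as the reference it was only 0.057 for ES (0.029 under quantile and 0.067 under loess normalization). For exercise against ischemia the same difference was -0.01, and for ischemia against sham -0.03.

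The alpha ring of the core, which gates entry to the chamber, was lower with ischemia than in sham for 7 of 7 genes, by a median of -0.11 in log2 ratio (5 of 7 under quantile and under loess normalization). Of all 10092 genes, 5075 were above 0 in that comparison. Sham was also above the exercise array for most of the ring: 1 of 7 genes was above 0 for exercise against sham (2 under quantile normalization), with a median of -0.06. Among all 10092 genes, 5158 were above 0 for exercise against sham. Psma1 read 1300.1 in sham, 1130.4 with ischemia, 1236 with ES and 1152 with exercise. Psma4 read 1097, 989, 1160.5 and 1141 in that order. Both were lowest with ischemia, and in Psma4, 1.17-fold higher with ES and 1.15-fold higher with exercise than with ischemia, both treated arrays lay above sham as well. Psma3 read 391, 359, 407 and 364, Psma5 1222, 1133, 1186 and 1174, and Psma2 1256, 1249, 1306 and 1234. In these 3 the 4 arrays spanned no more than 1.13-fold. A brighter probe set that carries the symbols Psma3l and Psma3 was left out because it is shared, and it read 2100 in sham, 2103 with ischemia, 1933 with ES and 1847 with exercise, so it was not lower with ischemia than in sham and was lower with ES than with ischemia, unlike the Psma3 probe set used in these counts. Psma7 was the most even member of all, at 2829.9, 2802, 2776 and 2744, a span of 1.03-fold, and Psma6 read 3701, 3590.4, 3605 and 3448. With ES against ischemia 6 of 7 alpha genes were above 0, all but Psma7 at -0.01 (7 of 7 under quantile and under loess normalization), with a median of 0.07. With ES against exercise 7 of 7 were, with a median of 0.06, close to the 0.03 of all genes.

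Of the constitutive beta genes, Psmb5 encodes the chymotrypsin-like and Psmb7 the trypsin-like protease, and the others measured encode non-catalytic neighbours in the ring. Psmb5 read 3386 in sham, 3107 with ischemia, 3372 with ES and 2965 with exercise, a span of 1.14-fold. Psmb7 read 1494, 1501, 1427 and 1335, highest in the untreated arrays and lowest with exercise. Psmb2 was the one constitutive beta gene that was higher on both treated arrays than on both untreated ones, at 1213 in sham, 1209 with ischemia, 1379.5 with ES and 1418 with exercise, and it was 1.14-fold higher with ES and 1.17-fold with exercise than with ischemia. Psmb4 went the other way, at 2978, 3074, 2684 and 2919, and was 1.15-fold lower with ES than with ischemia. Psmb3 read 1157, 1030.5, 1018 and 996, and Psmb1 2222, 2178, 2351 and 2118. The ES to ischemia ratios of these genes lay inside the middle 50% of all genes, which ran from -0.165 to 0.30 in log2 ratio for ES against ischemia, except that of Psmb4 (-0.20).

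The inducible subunits were highest with ES. Psmb8, the inducible counterpart of Psmb5, read 55.8 in sham, 66.2 with ischemia, 125 with ES and 81.2 with exercise. The ES array stood above the other 3, and sham was lowest. Psmb8 was 1.89-fold higher with ES than with ischemia, which placed it at rank 311 from the top of 10092 genes, 1.54-fold higher than with exercise, and 2.24-fold higher than in sham. That last ratio was the one member value past 2-fold in any of the 6 pairs of arrays (background 3.78% higher and 1.06% lower). Psmb8 lay less than 3 times above the floor in sham, ischemia and exercise, a range in which array signals are less precise.

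Psmb9, the counterpart of Psmb6, read 150.4 in sham, 153.8 with ischemia, 212 with ES and 133 with exercise. It was 1.38-fold higher with ES than with ischemia and 1.60-fold higher than with exercise, while sham and ischemia differed by 1.02-fold. Psmb10, the counterpart of Psmb7, read 216 in sham, 185 with ischemia, 261 with ES and 208 with exercise, and was 1.42-fold higher with ES than with ischemia and 1.25-fold higher than with exercise. All 3 were highest with ES, but the order of the other arrays differed from gene to gene. Set against its constitutive partner, Psmb8 over Psmb5 was 0.80 higher in log2 ratio with ES than with ischemia and 0.36 higher with exercise than with ischemia. Psmb10 over Psmb7 was 0.58 higher with ES and 0.34 higher with exercise, both against ischemia. Between ischemia and sham the pairs went opposite ways, at 0.37 and -0.23.

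**Figure D2:**
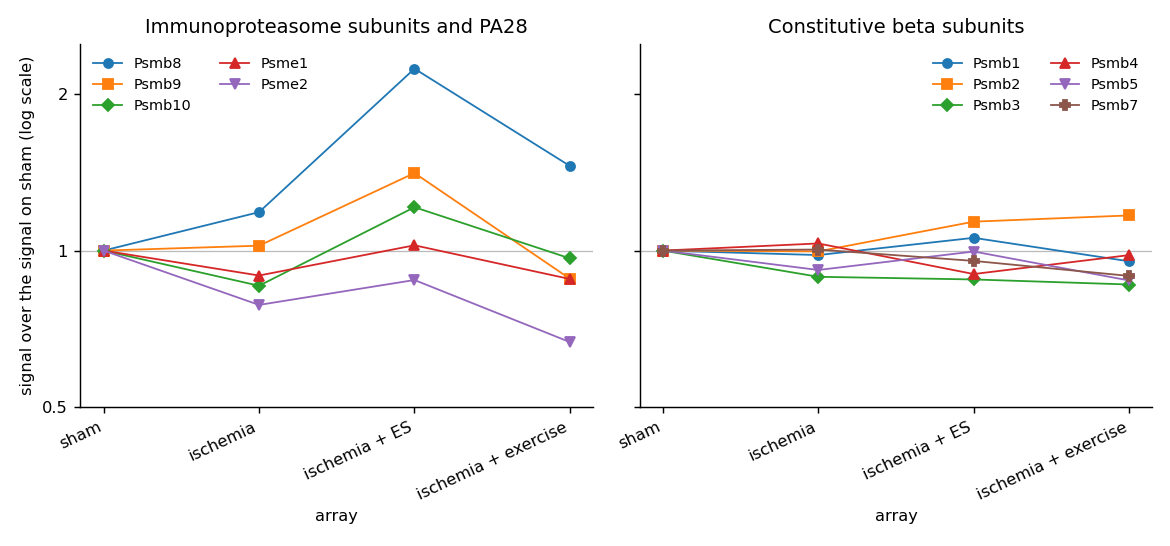
Signal of each gene divided by its own signal on sham (y axis, log scale) on the 4 arrays (x axis) for the immunoproteasome and PA28 genes (left) and the constitutive beta genes (right); points are single arrays, and the lines only join points of a gene. Psmb8 reaches 2.24 and Psmb9 1.41 with ES, while the 6 constitutive genes stay close to 1.

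The promoters of these genes are shown because Psmb8, Psmb9 and Psmb10 were highest on the same array, with Psmb5 for comparison. Each is the window from 250 bases before to 50 bases after the transcription start in the RefSeq promoter table (build GRCr8), written 5′ to 3′ on the strand of the gene. The windows are chr20:4656982-4657281 on the minus strand (Psmb8), chr20:4668750-4669049 on the plus strand (Psmb9), chr19:50743243-50743542 on the minus strand (Psmb10) and chr15:32047330-32047629 on the minus strand (Psmb5). Capitals mark matches on either strand to GAAA, any 2 bases and GAAA again (the repeat that interferon regulatory factors bind), to TGACNNNGC (an antioxidant response element core, of the kind that Nfe2l1 binds in proteasome promoters) and to CCAAT.
Psmb8: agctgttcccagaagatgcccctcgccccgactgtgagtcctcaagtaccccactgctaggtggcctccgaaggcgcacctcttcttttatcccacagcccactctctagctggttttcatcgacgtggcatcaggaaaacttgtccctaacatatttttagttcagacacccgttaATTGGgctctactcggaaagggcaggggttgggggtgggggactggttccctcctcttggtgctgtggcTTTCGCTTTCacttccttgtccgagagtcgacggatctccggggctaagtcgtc
Psmb9: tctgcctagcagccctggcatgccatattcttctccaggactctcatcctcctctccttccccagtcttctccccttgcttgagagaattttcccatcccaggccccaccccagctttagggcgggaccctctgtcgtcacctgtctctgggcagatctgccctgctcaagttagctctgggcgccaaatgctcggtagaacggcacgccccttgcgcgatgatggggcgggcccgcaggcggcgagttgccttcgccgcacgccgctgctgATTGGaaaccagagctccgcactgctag
Psmb10: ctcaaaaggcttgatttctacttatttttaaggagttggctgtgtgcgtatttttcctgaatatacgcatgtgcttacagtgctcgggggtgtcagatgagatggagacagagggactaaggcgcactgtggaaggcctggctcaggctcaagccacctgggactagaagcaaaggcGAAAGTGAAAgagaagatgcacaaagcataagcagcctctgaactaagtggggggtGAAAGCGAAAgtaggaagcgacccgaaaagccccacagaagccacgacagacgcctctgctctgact
Psmb5: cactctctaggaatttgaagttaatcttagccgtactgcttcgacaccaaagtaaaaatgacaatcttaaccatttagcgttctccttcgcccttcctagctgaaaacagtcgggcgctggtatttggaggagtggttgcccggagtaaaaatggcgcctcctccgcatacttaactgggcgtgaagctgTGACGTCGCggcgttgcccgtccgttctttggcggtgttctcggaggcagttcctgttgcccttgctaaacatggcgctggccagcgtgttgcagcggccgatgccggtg
The interferon factor repeat occurred once in the Psmb8 window, across the start site, and at 2 places in that of Psmb10, and was not found in those of Psmb9 and Psmb5. It also occurred in the window of Psme2, so 3 of 5 immunoproteasome and PA28 promoters held it, against 7 of the 40 members with a promoter in the table (17.5%, these 3 included) and 3.92% of all 33469 promoters. The remaining carriers were Psma4, Psmb3, Psmd7 and Psmg4. Their log2 ratios for ES against ischemia were 0.23, -0.02, 0.003 and 0.48, and the signs of Psmb3 and Psmd7 turned under quantile normalization. The antioxidant core occurred in 7 of 40 members (17.5%), Psmb5 among them and none of the 5, and in 12.1% of all promoters. CCAAT occurred in 20 of 40 members (50%), among them 9 of 12 core genes, and in 37.5% of all, and GGG, any 5 bases and CC, a loose form of the NF-kB site, in 62.5% of members and 47.3% of all. Matches to different motifs shared bases in 1 member promoter for CCAAT with the antioxidant core and in 2 for CCAAT with the NF-kB form, and in 0 for the other pairs. A match describes letters in this window and not a bound site.

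PA28, which caps the core and opens it to peptides, differed less between ES and ischemia than the inducible beta subunits. Psme1 read 1299.6 in sham, 1164 with ischemia, 1330.5 with ES and 1146 with exercise. Psme2 read 787, 619, 691 and 525, and was thus highest in sham and lowest with exercise. Both were higher with ES than with ischemia, 1.14-fold and 1.12-fold, and higher with ES than with exercise, 1.16-fold and 1.32-fold. Psme2 was 1.27-fold lower with ischemia and 1.5-fold lower with exercise than in sham. For exercise against sham it was the 1 of 44 members lower past 1.5-fold, where the background was 1.7%, and 0 were higher (background 2.93%), while at 2-fold no member passed (backgrounds 0.258% higher and 0.188% lower). Psme2 was at the threshold itself, with a log2 ratio of -0.585, and did not pass under quantile (-0.57) or loess normalization (-0.58).

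The 5 genes together had ratios above 0 in 5 of 5 for ES against ischemia, with a median of 0.465 (0.43 under quantile and 0.45 under loess normalization), and in 5 of 5 for ES against exercise, with a median of 0.40. Of all 10092 genes, 5656 and 5501 were above 0 in these comparisons, with medians of 0.05 and 0.03. Without Psmb8 the medians of the other 4 were 0.33 and 0.36. With exercise against ischemia 2 of 5 were above 0 and the median was -0.02, and with ischemia against sham 2 of 5 (1 under loess normalization) with a median of -0.16. Markers of several cell types also differed on these arrays. The summed signal of 8 endothelial markers, all above the floor on each array, was 4359 with ES against 2133 with ischemia, 2360 with exercise and 2244 in sham. The developing-fibre markers, 5 or 6 of 7 above the floor and Chrng on no array, summed to 4378 with ES, 1312 with ischemia, 990 with exercise and 1507 in sham, with a median log2 ratio of 1.64 for ES against ischemia, and Myh8, the perinatal myosin gene, was 27.7-fold higher. For 15 macrophage markers the sum was 5540 with ES, 4732 with ischemia, 2171 with exercise and 2114 in sham, with 13 or 14 of 15 above the floor and Itgam at or below it on all arrays. Their median log2 ratio for ES against ischemia was nevertheless -0.05, with 6 of 14 above 0, so the higher sum with ES did not hold for most of these markers. Lymphocyte markers were near absent, with 1 or 2 of 10 above the floor, Cd3e, Cd3d, Cd2, Cd4, Cd8a, Cd79b, Ms4a1 and Nkg7 at or below it on all arrays, and sums of 105 in sham, 130.5 with ischemia, 175.5 with ES and 92.8 with exercise. The dendritic cell markers, of which 3 or 4 of 5 were above the floor and Flt3 on none, summed to 2081 with ES, 2156 with ischemia, 1028 with exercise and 1177 in sham. The part of these cells in the immunoproteasome ratios was not tested.

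Interferon response and antigen presentation genes, which interferon induces together with the immunoproteasome, were read from fixed lists. Of 20 interferon response genes measured, 7 were more than 2-fold higher with ES than with ischemia and 0 lower, with a median of 0.67. The background there was 2.28% higher and 0.793% lower. Isg15, a ubiquitin-like modifier, read 58.0 in sham, 58.6 with ischemia, 175 with ES and 66.3 with exercise and was 2.98-fold higher with ES than with ischemia. Oasl was 2.74-fold, Oas1a 2.59-fold and Usp18, the protease that removes Isg15, 2.49-fold higher. Several of these ratios rest on a low ischemia value. With ischemia, Oasl read 42.0, Oas1a 34.0 and Ifit3 34.5, near the floor of 30.1, and Mx2 lay under it. Rsad2 read 256 in sham, 123 with ischemia, 256 with ES and 102 with exercise, so ES did not exceed sham. Irf1, a transcription factor of Psmb9 and Tap1, read 98.6, 124.6, 176.8 and 111.8 in the same order of arrays and was 1.42-fold higher with ES than with ischemia. With exercise against ischemia none of the 20 passed 2-fold and the median was 0.01.

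Of 13 antigen processing genes, 9 had ratios above 0 for ES against ischemia (5656 of all 10092 genes), none passed 2-fold, and the median was 0.11. RT1-S3, a class I gene, was 1.74-fold and B2m, its light chain, 1.52-fold higher with ES than with ischemia. The other class I genes of the list did not follow: RT1-CE5 was 1.02-fold higher, RT1-CE16 1.04-fold lower and RT1-M3-1 1.22-fold lower. Erap1, also of this list, was 1.28-fold lower. In the RefSeq gene order of chromosome 20, Psmb8 and Psmb9 lie next to the peptide transporter genes, in the order Tap2, Psmb8, Tap1 and Psmb9. Tap1 did not follow its neighbours across the arrays: it read 44.7 in sham, 68.6 with ischemia, 73.9 with ES and 45.5 with exercise, and was 1.08-fold higher with ES than with ischemia but 1.54-fold higher with ischemia than in sham. Tap1 and Psmb9 were both higher with ES than with exercise, by 1.63-fold and 1.60-fold.

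**Figure D3:**
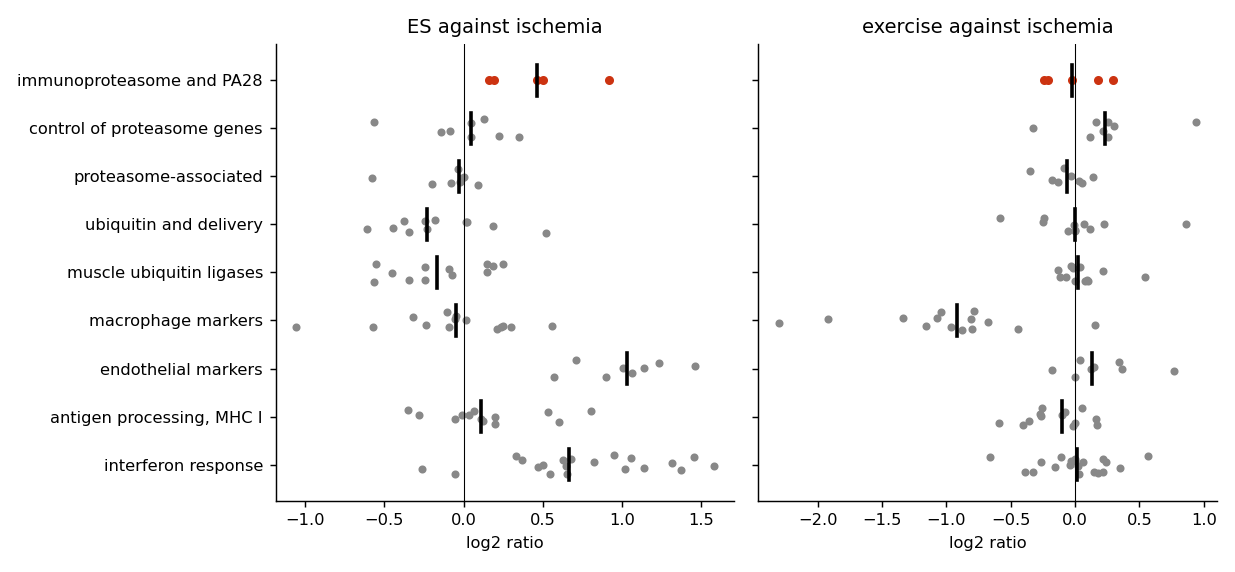
Log2 ratio over the ischemia array (x axis) with ES (left) and with exercise (right) for the 5 immunoproteasome and PA28 genes (top row) and for genes of 8 fixed lists (other rows); points are genes, black bars medians, and the x axes differ in range. With ES the medians of the immunoproteasome (0.465), interferon response (0.67) and endothelial (1.03) rows lie right of 0, and with exercise the macrophage row lies left of it (-0.92).

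The regulatory particle leaned the other way with ES. Of its 17 genes, 12 had ratios below 0 for ES against ischemia, with a median of -0.11, and 14 for ES against exercise, with a median of -0.09 (13 under quantile normalization). Of all 10092 genes, 5656 and 5501 were above 0 in these comparisons, with medians of 0.05 and 0.03. The ES array was the lowest of the 4 for 11 of 17 genes, against 1 of 13 in the core particle. How many of all genes were lowest with ES was not counted. With ES against sham the median was -0.084 and 3 of 17 were above 0. Under quantile normalization these were -0.015 and 6, and under loess normalization -0.046 and 7. Over all genes, 5738 of 10092 were above 0 for ES against sham on the main scaling, with a median of 0.055. The count of 11 was made on the main scaling only. Among those genes, Psmd13 was not lowest with ES under quantile normalization (log2 ratio 0.003 against ischemia). Under loess normalization Psmc2 was not (0.010 against sham). With exercise against ischemia 9 of 17 were below 0 and the median was -0.02, while 4812 of all 10092 genes were above 0, with a median of 0.00. With ischemia against sham the median was -0.01 (0.02 under quantile and 0.003 under loess normalization). The ES array also had the highest and the ischemia array the lowest 3' to 5' ratio for all 3 control genes, and the part of RNA quality in these small ratios was not tested.

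Among the ATPases, which unfold substrates, Psmc6 stood out, at 1261 in sham, 1976 with ischemia, 1225 with ES and 1501 with exercise. It was 1.57-fold higher with ischemia than in sham, 1.61-fold lower with ES and 1.32-fold lower with exercise than with ischemia. Its 2 other probe sets gave log2 ratios of 0.23 and -0.29 for ischemia against sham and of -0.39 and 0.02 for ES against ischemia, so the size and in part the direction depended on the probe set. Psmc5 read 1651, 1610.1, 1311 and 1407 and was 1.23-fold lower with ES and 1.14-fold lower with exercise than with ischemia. Psmc1 read 998, 1035, 923 and 1012, Psmc2 3269, 3365, 3177 and 3276, and Psmc3 1426, 1414, 1414 and 1303. In Psmc1 and Psmc2 ES was the lowest array, and in Psmc3 exercise was. Psmc4 spanned 1.05-fold, at 850.1, 838, 882 and 851.

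In the rest of the base, Psmd1 and Psmd2 are scaffolds and Psmd4 is a ubiquitin receptor, and all 3 were lowest with ES. Psmd1 read 724 in sham, 739 with ischemia, 648 with ES and 683 with exercise, Psmd2 1707, 1745, 1608 and 1808, and Psmd4 859.9, 784, 738 and 807. Their log2 ratios for ES against ischemia were -0.19, -0.12 and -0.09.

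The lid removes ubiquitin chains before degradation. Psmd3, a structural lid gene, had the lowest ES ratio of the lid, at 581 in sham, 543 with ischemia, 410.2 with ES and 573 with exercise, so that ES lay below 3 arrays that were within 1.07-fold of each other. It was 1.32-fold lower with ES than with ischemia, 1.40-fold lower than with exercise and 1.42-fold lower than in sham. Psmd11, whose product promotes assembly of the particle, read 1596, 1715, 1410.3 and 1668 and was 1.22-fold lower with ES than with ischemia, while its other probe set above the floor had a log2 ratio of 0.01. Psmd14, the deubiquitinase of the lid, read 1232, 1313, 1152 and 1179, and Psmd12 1211, 1342, 1244 and 1324, both highest with ischemia. Psmd7, the partner of Psmd14, read 1385, 1367, 1369.9 and 1442, and Psmd6 1756, 1673, 1711 and 1742, a span of 1.05-fold each. Psmd13 read 728, 715, 687 and 753, and Psmd8, with 586, 575, 626 and 587, was the highest of the lid with ES, at a log2 ratio of 0.12 against ischemia.

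**Figure D4:**
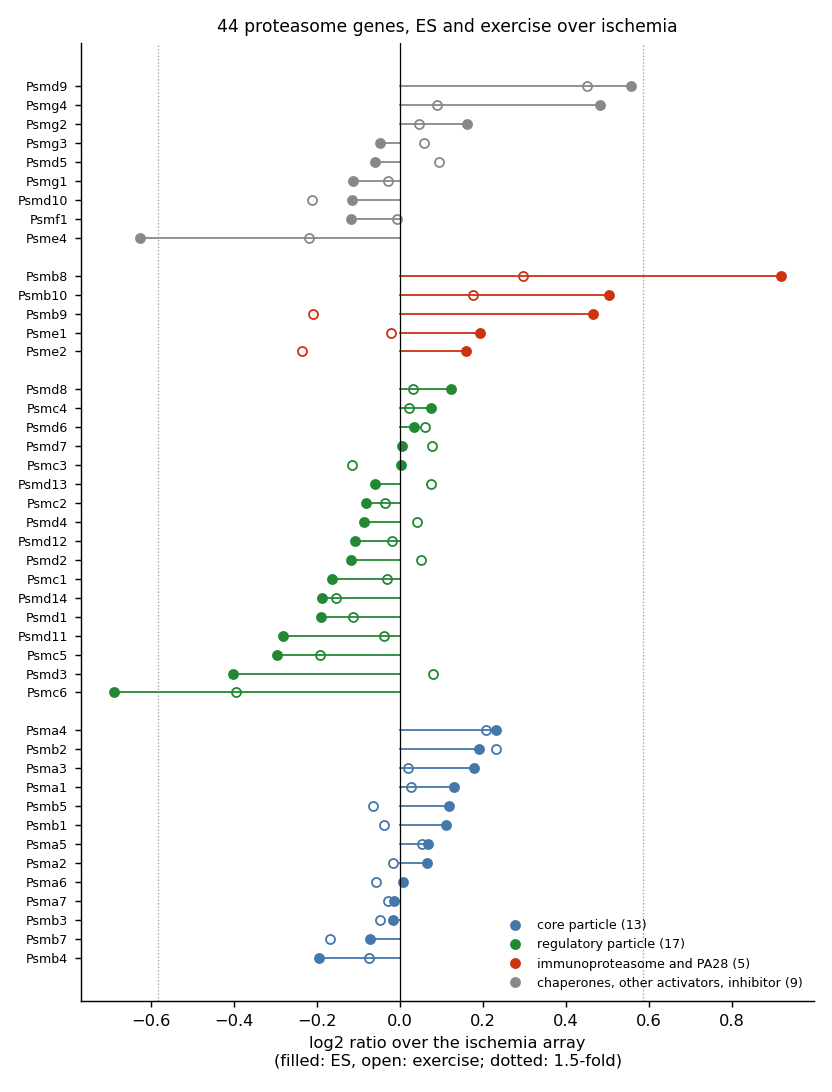
Log2 ratio over the ischemia array (x axis) of the 44 proteasome genes (y axis) with ES (filled points) and with exercise (open points), coloured by part; both series share the ischemia array, and dotted lines mark 1.5-fold. With ES the regulatory genes run from -0.69 (Psmc6) to 0.12 (Psmd8) and the immunoproteasome and PA28 genes from 0.16 (Psme2) to 0.92 (Psmb8).

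Psme4, which encodes a large activator that caps the core without ATP, was 1.54-fold lower with ES than with ischemia, at 999.8 in sham, 1165 with ischemia, 755 with ES and 1002 with exercise. The ES array was the lowest on all 3 of its probe sets, whose log2 ratios for ES against ischemia were -0.63, -0.22 and -0.56. Psmf1, which encodes an inhibitor of the core, read 433, 406, 374 and 404, a log2 ratio of -0.12 for ES against ischemia.

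The assembly chaperones, which build the particles and leave them, went separate ways. Psmd9, a chaperone of the base, read 62.5 in sham, 65.3 with ischemia, 96.0 with ES and 89.2 with exercise, so both treated arrays were above both untreated ones, by 1.47-fold and 1.37-fold over ischemia. It was 1.54-fold higher with ES than in sham, and with Psmb8 it made 2 of 44 members past 1.5-fold in that pair (background 12.4% higher), with 0 lower (background 4.36%). The Psmd9 log2 ratio there was 0.62, and 0.51 under quantile and 0.52 under loess normalization, both under 1.5-fold. Psmd9 is dim and its other probe set was below the floor on all arrays. Psmd10, another base chaperone also known as gankyrin, read 259, 251, 232 and 217, and Psmd5 330.0, 320.2, 307 and 341. Of the core chaperones, Psmg4 was 1.40-fold higher with ES than with ischemia, at 581, 515, 719 and 548, with ES above the other 3 arrays. Psmg2 read 304, 266, 297 and 274, Psmg3 391, 347, 335 and 361, and Psmg1 519.8, 527, 487 and 516, with log2 ratios of 0.16, -0.05 and -0.11 for ES against ischemia.

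Probe sets of a gene did not always go together. Of the 44 genes, 9 had several probe sets, and 5 had more than 1 above the floor on all arrays. For Psmd7 the brightest probe set had a log2 ratio of 0.003 for ES against ischemia, with -0.001 under quantile normalization, and the other -0.67, at 479 in sham, 610 with ischemia, 383 with ES and 436 with exercise. For Psmd14 the 2 dimmer probe sets had ratios of -0.25 and -0.585 against -0.19 for the brightest. Of the 13 probe sets of these 5 genes above the floor on all arrays, 10 were lower and 3 higher with ES than with ischemia. With ES against exercise all 13 were lower, by log2 ratios from -0.015 to -0.51. These are repeated readings of 5 genes on the same arrays, and the share of all probe sets lower there was not counted. Where the probe sets lie along the transcripts was not used here. When a gene's probe sets were averaged, 0 members were lower past 1.5-fold with ES against ischemia and 0 higher with ischemia against sham, in place of 2 and 1.

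**Figure D5:**
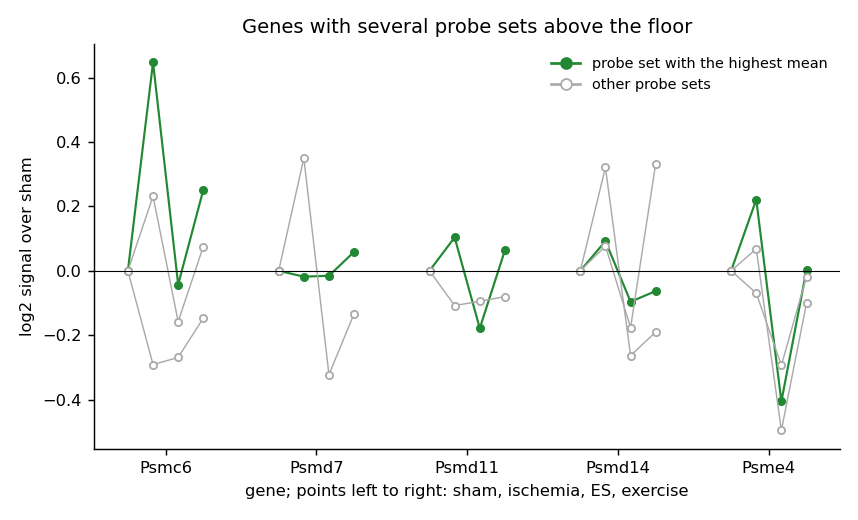
Log2 signal over the signal on sham (y axis) for each probe set above the floor on all arrays of the 5 genes with more than 1 of them (x axis); the 4 points of a line are sham, ischemia, ES and exercise from left to right. The brightest probe set of Psmc6 reaches 0.65 with ischemia while another of the same gene lies at -0.29.

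Genes around the proteasome were taken from fixed lists. Of 8 genes for associated and assembly factors outside the name rule, none passed 1.5-fold in the 4 comparisons, and the median was -0.03 for ES against ischemia. Ecpas, a scaffold that tethers the core to the regulatory particle, read 3391 in sham, 3988 with ischemia, 2676 with ES and 3524 with exercise, 1.49-fold lower with ES than with ischemia. Pomp, the core maturation factor, read 2232, 2176, 2323 and 2227, and the ubiquitin receptor gene Adrm1 read 235, 237, 225 and 216. Sem1, a lid subunit, read 2859, 3292, 3273 and 2586 and was 1.27-fold lower with exercise than with ischemia.

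Nfe2l1, which encodes the transcription factor that raises proteasome genes when proteasome activity falls, read 1025 in sham, 917 with ischemia, 830.0 with ES and 1066 with exercise. Ddi2, the protease that activates it, read 224, 317, 215 and 253 and was 1.48-fold lower with ES and 1.26-fold lower with exercise than with ischemia. Of the 8 genes of this control list, 7 had ratios above 0 for exercise against ischemia, with a median of 0.24, and 5 for ES against ischemia (4 under quantile normalization), with a median of 0.04. Of all 10092 genes, 4812 and 5656 were above 0 in these comparisons, with medians of 0.00 and 0.05. Maff, a small partner of these factors, was at least 1.92-fold higher with exercise, since it lay under the floor with ischemia, and the other 7 were within 1.5-fold.

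Among 11 measured genes for ubiquitin activation and delivery, none passed 2-fold in the 4 comparisons, and the median was -0.23 for ES and 0.00 for exercise against ischemia. Uba6, a ubiquitin-activating enzyme, read 65.2 in sham, 118 with ischemia, 77.6 with ES and 78.6 with exercise, with ischemia above the other 3. Ubqln4, which shuttles substrates to the proteasome, showed the reverse at 475, 270, 386 and 490, with ischemia the lowest. Of the 12 muscle ubiquitin ligases none passed 2-fold either, with medians of -0.17 for ES and 0.02 for exercise against ischemia. Trim63, the MuRF1 ligase gene of wasting muscle, read 1636, 1867, 2067 and 1867, and Fbxo32, the atrogin-1 gene, 56.1, 51.1, 37.3 and 46.5. Between ES and ischemia they differed by 1.11-fold higher and 1.37-fold lower.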

How the data were processed

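The values deposited by the authors are intensities, linear in scale, 1 for each of 31099 probe sets on an array. They were made with MAS5, per the submitters' processing notes, and the sources used here give no version or further step. The deposited arrays shared a 2% trimmed mean of 150.1, so a difference in total mRNA cannot be seen. Signals were scaled to that common mean, set to a floor at the 50th percentile (30.1) and taken to log2 (Python 3.11.15, pandas 2.3.3). Probe sets were named from the platform annotation of 2016; of 66 matching the rule, 6 with several symbols were left out, and the other 60 matched RefSeq gene identifiers with 0 symbols differing. Genes were called past 2-fold or 1.5-fold, as differences between 2 arrays with no test. The members, lists and named genes were chosen with earlier results of these data known: every member, and of other lists up to 4 genes past 2-fold plus fixed genes. B2m, RT1-S3, Ecpas, Ddi2, Maff, Uba6 and Ubqln4 were added after their values were seen. Motifs were set with the ratios known. Alternatives were quantile and cyclic loess normalization (limma 3.58.1), floors at the 30th and 70th percentile, other thresholds, the mean of all probe sets, and leaving out probe sets open to cross-hybridization. The ratio calculation was tested on simulated data. The number of arrays limits the precision.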

Additional observations from a re-analysis of the deposited data

How the results depend on the processing

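No paired analysis was possible because each group has 1 array. Of 256 alternative values of the counts, medians and partner differences in the 4 comparisons, 239 stayed within 0.1 in log2 ratio or 1.5 times the count, and 17 moved. No value past 1.5-fold changed sign. The sign of small medians turned in 4 of the 239, under quantile and loess normalization respectively: that of all members for ES against ischemia (0.010 and 0.013, from -0.006) and that of the regulatory particle for ischemia against sham (0.018 and 0.003, from -0.013). A floor at the 70th percentile, under which Psmb8 lies in sham, ischemia and exercise, moved Psmb8 over Psmb5 to 0.12 (ischemia against sham), 0.18 (ES against ischemia), 0.067 (exercise against ischemia) and 0.11 (ES against exercise). For the comparisons without ES these values are the Psmb5 ratio alone, with its sign turned, and for those with ES they are lower bounds. It moved the immunoproteasome and PA28 median for ES against ischemia to 0.30, and left 0 members higher past 1.5-fold there and 1 for ES against exercise. For that last pair, quantile and loess normalization also left 1 (Psmb9, without Psmb8), and Psmb8 over Psmb5 was 0.33 under loess and 0.56 with the mean of all probe sets. In that mean the Psmb5 ratio is drawn toward 0, because its other probe sets were below the floor on all arrays. The mean of all probe sets left 0 members past 1.5-fold for ischemia against sham (higher) and for ES against ischemia (lower). A threshold of 1.5-fold in place of 2-fold gave 1 higher for ischemia against sham, 1 higher and 2 lower for ES against ischemia, and 2 higher for ES against exercise. Psmb9 over Psmb6 was not run, since Psmb6 has no probe set of its own. With 1 array per group no array could be left out.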

Other observations

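The 2 genes that share only the start of the name did not go together. Psmc3ip, which encodes a factor of meiotic recombination, read 133 in sham, 118 with ischemia, 170.4 with ES and 168 with exercise, so both treated arrays lay above both untreated ones. Psme3ip1 read 315.5, 254, 257 and 286, with sham the highest.

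Heat shock protein and chaperonin genes were read from a fixed list, in which Hspd1 and Hspe1 encode mitochondrial chaperonins and the others act mainly in the cytosol. All 15 measured genes had lower signals with ischemia than in sham, with a median log2 ratio of -0.26, while 5075 of all 10092 genes were above 0. Of the 15, 2 passed 2-fold: Hspb7, a small heat shock protein gene of muscle, was 4.62-fold and Hspa1a, the inducible Hsp70 gene, 2.51-fold lower, where 0.862% of all genes were 2-fold lower. With exercise against ischemia the same 2 were 5.73-fold and 3.28-fold higher (background 1.14% higher). With ES against ischemia Hspb7 was 3.59-fold and Hspa1a 1.18-fold higher (background past 2-fold 2.28% higher), both comparisons sharing the ischemia array. The 10 slow-fibre markers went the same way, with median log2 ratios of -2.77 for ischemia against sham, 2.95 for exercise against ischemia and 0.94 for ES against ischemia, and their part in these values was not tested.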
